A study of Caenorhabditis elegans with 2 samples.

Results

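The proteasome and CDC-48 genes of *Caenorhabditis elegans* were described here for where the homeobox protein CEH-82 gave peaks in chromatin immunoprecipitation with sequencing (ChIP-seq). The members were the protein-coding genes of the WBcel235 annotation whose names start with rpn-, rpt-, pas-, pbs-, cdc-48., ufd- or npl-4., which gave 41 of 19973 genes. They fell by name into 14 genes of the core particle, 19 of the regulatory particle and 8 for CDC-48 and its cofactors. The series held 1 group of 2 biological replicates, whole L2 larvae of mixed sex of strain OP212, with the genotype unc-119(ed3) III; ddEx58 and ChIP directed at eGFP-tagged CEH-82. The name ddEx58 has the form used for an extrachromosomal array, which not every cell need carry, while the same label speaks of an insertion. No untagged strain or other stage was in the group, and whole animals do not show in which tissue a peak arose.

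The proteasome degrades proteins that carry ubiquitin. Its core particle is a barrel of alpha rings (pas genes) and beta rings (pbs genes), with the protease sites on beta subunits inside. The regulatory particle caps the barrel: its ATPase ring (rpt genes) unfolds the substrate, and its non-ATPase subunits (rpn genes) bind ubiquitin, remove it and hold the particle together. CDC-48, known as p97 in mammals, is an ATPase that pulls ubiquitinated proteins out of complexes and membranes, with UFD-1 and NPL-4 as the cofactors that bind the ubiquitin chain. In *C. elegans*, proteasome genes are known targets of the transcription factor SKN-1.

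The authors deposited 4 peak lists on build ce11 that were used here. The thresholded list holds 537 regions that passed their reproducibility threshold, called reproducible peaks below. The pooled list, from both replicates together, holds 9070 regions, and the reproducible peaks are its 537 strongest. Each replicate list holds 30000 regions and so includes background by construction. The pooled list is also labelled by the authors as peaks and background, and its q-values reach 0.96. Signal values are the authors' own score per region and rank regions within a list only. No read numbers come with these files, and the sequencing depth is unknown. A gene was counted where a summit lay 1000 bp upstream to 200 bp downstream of its annotated start. With a single group there was no contrast to test, so counts stand beside the same count over all protein-coding genes, and no p-value is given.

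CEH-82 gave reproducible peaks at 4 of the 41 genes, and by far the strongest was at cdc-48.1. The others were rpn-3 and rpn-11 of the regulatory particle and pbs-1 of the beta ring. That is 9.76% of the members, against 2.54% of all protein-coding genes (507 of 19973) and 2.58% of those on autosomes, where all members lie. By class, 1 of 14 core particle genes (7.14%), 2 of 19 regulatory particle genes (10.5%) and 1 of 8 CDC-48 genes (12.5%) had a reproducible peak. These class shares rest on 1 or 2 genes each and show no order. No alpha ring gene (0 of 7) and no gene of the ATPase ring (0 of 6) had a reproducible peak, and none of the 5 cofactor genes did.

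The sequence under these summits is shown because it carries the strongest sites among the members and the closest site that missed the threshold, that of rpt-6. Each reaches 100 bp to either side of the summit, on ce11, from the RefSeq copy of WBcel235, and runs 5′ to 3′ on the strand of the gene. Capitals mark matches to the motifs searched, which are listed further below.
cdc-48.1, chrII:10563489-10563689, minus strand: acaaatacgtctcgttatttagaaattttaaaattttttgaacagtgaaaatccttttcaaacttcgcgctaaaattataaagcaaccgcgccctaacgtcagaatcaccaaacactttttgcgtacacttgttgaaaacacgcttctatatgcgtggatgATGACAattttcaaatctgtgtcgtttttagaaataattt
rpn-3, chrIII:8447064-8447264, plus strand: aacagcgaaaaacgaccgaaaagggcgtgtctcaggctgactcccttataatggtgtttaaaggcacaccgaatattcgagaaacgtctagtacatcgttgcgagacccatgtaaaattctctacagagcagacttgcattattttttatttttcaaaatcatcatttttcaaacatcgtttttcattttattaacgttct
rpn-11, chrII:4044447-4044647, minus strand: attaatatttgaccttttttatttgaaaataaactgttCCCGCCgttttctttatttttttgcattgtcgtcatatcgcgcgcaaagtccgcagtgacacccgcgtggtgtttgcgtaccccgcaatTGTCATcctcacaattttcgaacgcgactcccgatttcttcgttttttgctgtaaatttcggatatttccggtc
pbs-1, chrIV:1709840-1710040, minus strand: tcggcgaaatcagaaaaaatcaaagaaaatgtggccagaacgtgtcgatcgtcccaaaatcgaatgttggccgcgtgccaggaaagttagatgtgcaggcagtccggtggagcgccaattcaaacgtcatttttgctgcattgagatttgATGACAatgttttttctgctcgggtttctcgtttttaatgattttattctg
rpt-6, chrIII:12370075-12370275, plus strand: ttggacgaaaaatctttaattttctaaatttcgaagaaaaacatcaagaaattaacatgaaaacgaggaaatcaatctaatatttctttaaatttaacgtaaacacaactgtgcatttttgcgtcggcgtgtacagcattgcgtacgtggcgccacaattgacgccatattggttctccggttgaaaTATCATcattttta

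The cdc-48.1 peak was near the top of every list. The gene (WBGene00007352, chrII:10560036-10563407, minus strand) encodes a CDC-48 ATPase. Its peak lay at chrII:10563521-10563637 with the summit at -182 bp from the gene start. The signal value was 153 in the pooled list, rank 8 of 9070. In the replicates it was 37.7 (rank 11 of 30000) in replicate 1 and 112 (rank 3 of 30000) in replicate 2, with summits 1 and 0 bp from the pooled one. The peak was 117 bp wide, whereas 526 of the 537 reproducible peaks were 264 bp wide. No other protein-coding gene start was in range, and the only other gene whose window held the summit was the snoRNA gene C06A1.9, at -525 bp from its start.

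The other CDC-48 genes were listed only weakly. The paralog cdc-48.2 had no pooled summit and a single replicate 2 summit, with a signal value of 3.04 at rank 28175 of 30000. Its promoter window shared no 36-mer with that of cdc-48.1. The cdc-48.3 window held no pooled summit either, and its replicate summits ranked 28771 and 9685. Among the cofactor genes, ufd-3 had a pooled summit at -166 bp with a signal value of 13.8 (rank 1217), and its nearest replicate summits ranked 696 and 3907. The ufd-1 summit, at -316 bp, had 10.1 (rank 3020) and was listed in replicate 2 (9.20, rank 1400) but not in replicate 1. The ubiquitin chain elongation gene ufd-2 had only a replicate 2 summit, at rank 29018.

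Both npl-4 genes were in no list, where the sequence itself limits what can be seen. The 1201 bp windows of npl-4.1 and npl-4.2, nearby copies on chromosome II, differed by an edit distance of 1 base. Of their 36-mers, 96.9% occur more than once in the nuclear genome. Over the other 39 member windows that share was at most 9.35%, with a median of 0%. How the authors treated reads that map to several places is not given in the sources used here, so a missing summit at these 2 genes cannot be read as missing binding.

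In the regulatory particle, the 2 reproducible peaks were at non-ATPase genes and ranked higher in replicate 2. The gene rpn-3 (WBGene00004460, chrIII:8447353-8449346, plus strand) encodes a subunit of the lid. Its peak at chrIII:8447032-8447295 had its summit at -189 bp and a pooled signal value of 43.6 (rank 95). The value was 9.08 (rank 393) in replicate 1 and 33.9 (rank 76) in replicate 2. The summit also lay at -255 bp from the start of hsp-110, a chaperone gene of the HSP70 superfamily on the other strand, and at -69 bp from the noncoding RNA gene C30C11.14. The peak cannot be assigned to one of these genes.

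The rpn-11 peak sat on the gene start itself. The gene (WBGene00004467, chrII:4043055-4044546, minus strand) encodes the metalloprotease that removes ubiquitin from substrates. The peak at chrII:4044415-4044678 had its summit at -1 bp and a pooled signal value of 32.3 (rank 195). It was strong in replicate 2 (22.8, rank 190, minus log10 q 3.09) and weak in replicate 1 (5.92, rank 2302, minus log10 q 1.18). No other gene start was in range.

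The remaining regulatory particle genes stayed below the threshold. The closest was rpt-6, an ATPase ring gene, with a pooled signal value of 16.6 at rank 842, where the weakest reproducible peak had 21.1. Its nearest replicate summits had 8.48 (rank 511) in replicate 1 and 7.91 (rank 2099) in replicate 2. Further pooled summits were at rpn-2, rpn-9, rpn-7, rpn-5, rpn-8 and rpt-5. These had signal values between 7.97 and 10.4, ranks between 2678 and 7068 and minus log10 q between 0.05 and 0.32. Of these, rpn-2 (rank 944) and rpn-7 (rank 1174) were listed in replicate 2 and not in replicate 1, while rpn-8 was listed only in replicate 1. The genes rpt-1, rpt-2, rpt-4, rpn-6.1, rpn-10, rpn-12 and rpn-13 had only replicate summits, the best of them at rank 5994 (rpt-1). RPN-10 and RPN-13 are ubiquitin receptors, and RPN-6.1 is a lid subunit. The scaffold gene rpn-1, the ATPase gene rpt-3 and rpn-6.2, the paralog of rpn-6.1, were in no list.

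In the core particle, pbs-1 alone had a reproducible peak, and it ranked higher in replicate 1. The gene (WBGene00003947, chrIV:1708814-1709745, minus strand) had a peak at chrIV:1709808-1710071, with the summit at -195 bp and a pooled signal value of 26.1 (rank 321). The value was 12.2 (rank 172) in replicate 1 and 12.5 (rank 740) in replicate 2. The summit also lay at -325 bp from the start of K08D12.3 on the other strand. Of the other beta ring genes, pbs-7 had pooled summits at -124 bp (15.3, rank 958) and -626 bp (10.1, rank 3004), and pbs-5 had a summit at -873 bp (8.54, rank 5487).

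Among alpha ring genes the strongest pooled summit was that of pas-7, at -228 bp with 13.6 (rank 1259). It was equally far from the start of puf-12, which encodes an RNA-binding protein of the Pumilio family, on the other strand. The pooled summit of pas-5 had 8.97 (rank 4556). In replicate 1, pas-5 also had a summit just inside the window, at -984 bp. No pooled or replicate 2 summit lay beside it within the window. The replicate 1 summit had a signal value of 10.3 (rank 268). Sequence that occurs more than once in the genome spans -967 to -900 bp there, and its part in that value was not tested. The genes pas-1, pas-2, pas-6 and pbs-3 were in no list, and pas-3, pas-4, pbs-2, pbs-4 and pbs-6 had replicate summits only.

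**Figure D1:**
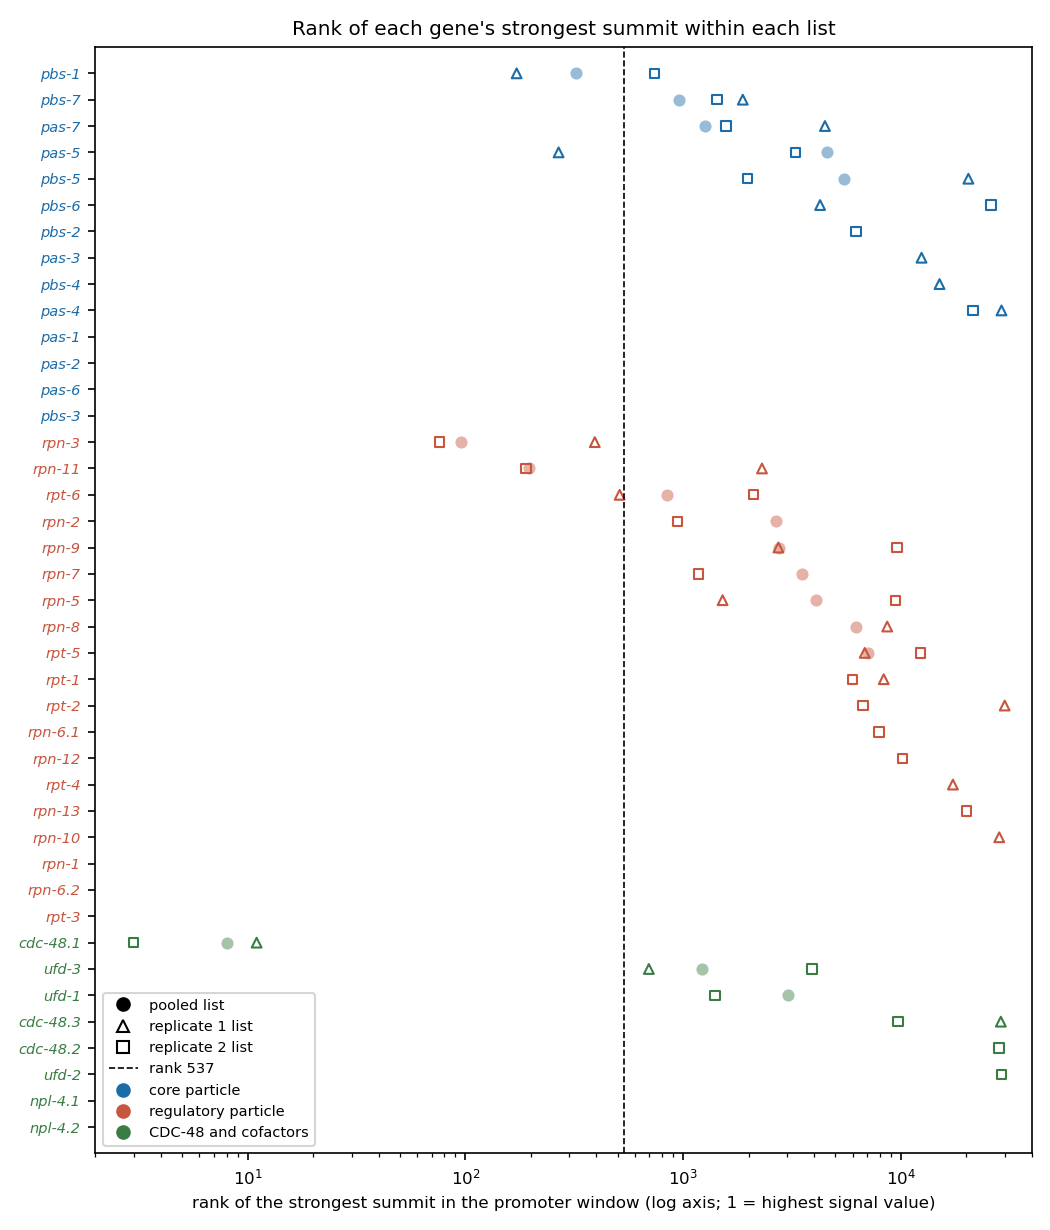
Rank of the strongest summit in the promoter window of each of the 41 genes, on a log axis, in the pooled list (filled circles), replicate 1 (triangles) and replicate 2 (squares); genes with no marker were in none of them and the dashed line is rank 537. The gene cdc-48.1 stands alone at ranks 3 to 11, and 4 pooled markers lie left of the line.

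Counted over all classes, members were listed more often than protein-coding genes at large in every list, and more so in the shorter ones. Pooled summits were found for 17 of 41 members (41.5%), against 15.5% of all protein-coding genes. They comprised 5 of 14 core particle genes (35.7%), 9 of 19 regulatory particle genes (47.4%) and 3 of 8 CDC-48 genes (37.5%). At member summits that were not reproducible, minus log10 q ran from 0.05 to 2.05. The highest of these values were 2.05 at rpt-6 and 1.59 at pbs-7. Since the pooled list includes background, a pooled summit alone is not taken here as evidence of binding. Replicate 1 listed 23 members (56.1%, against 37.2%) and replicate 2 listed 27 (65.9%, against 36.9%). Of the 17 members with a pooled summit, 4 (23.5%) had a reproducible one, against 16.4% of the 3092 protein-coding genes with a pooled summit. The difference between these shares rests on few genes. CDC-48 genes were listed by replicate 1 in 3 of 8 cases (37.5%) and by replicate 2 in 6 of 8 (75%), against the same 37.2% and 36.9%. Of those listed by replicate 2 only, cdc-48.2 and ufd-2 ranked 28175 and 29018 of 30000, and ufd-1 ranked 1400. Among its 537 strongest regions, each replicate listed 1 of these 8 genes, so nothing is read from the difference.

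The replicates taken alone gave 2 of the 4 genes in common. Among the 537 strongest regions of replicate 1 were those of 5 members (12.2%, against 2.00% of all protein-coding genes), namely cdc-48.1, pbs-1, rpn-3, rpt-6 and, through its separate summit at -984 bp, pas-5. Among the 537 strongest of replicate 2 were those of 3 members (7.32%, against 2.40%), namely cdc-48.1, rpn-3 and rpn-11. Only cdc-48.1 and rpn-3 were in both, which is 2 of 41 members, against 250 of all 19973 protein-coding genes. Over all reproducible peaks, 240 of 537 had a matching summit within 100 bp among the strongest 537 of both replicates. Of the 18 pooled summits at members, 14 had a replicate 1 summit within 100 bp, 16 a replicate 2 summit, and 12 both. Each replicate was matched to the pooled summit and not to the other replicate. At ufd-3, for example, the replicate summits were at -107 and -247 bp. The same counts over all pooled regions are not at hand, so nothing is read from these.

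**Figure D2:**
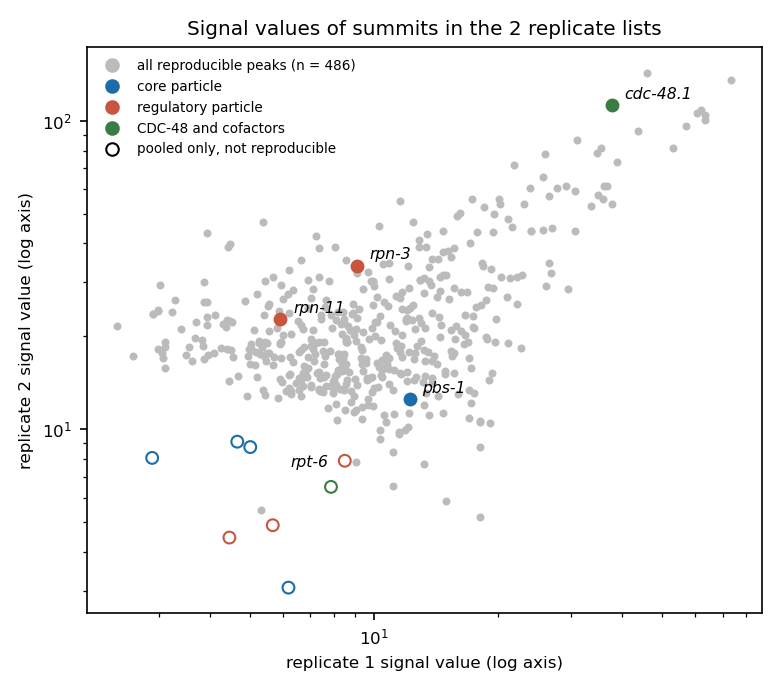
Signal values of replicate 1 and replicate 2 (log axes, the authors' score) for summits within 100 bp of a pooled one; filled colours are the 4 reproducible peaks at member genes, open circles the other pooled summits at members found in both lists, and grey points the 486 reproducible peaks found in both lists. The cdc-48.1 point (37.7 and 112) lies among the strongest, and the open circles have 3.07 to 9.12 in replicate 2.

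Genes of other large complexes carried reproducible peaks in larger shares. The 78 genes named rpl- or rps-, for cytosolic ribosomal proteins, had 39 with a reproducible peak (50%) and 61 with a pooled summit (78.2%). The 8 cct genes, for the cytosolic chaperonin, had 3 (37.5%) and 5 (62.5%). The proteasome and CDC-48 genes, with 9.76% and 41.5%, lay between these lists and all protein-coding genes (2.54% and 15.5%). These lists were known to be frequently bound before they were set beside the members, so the order is a description.

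**Figure D3:**
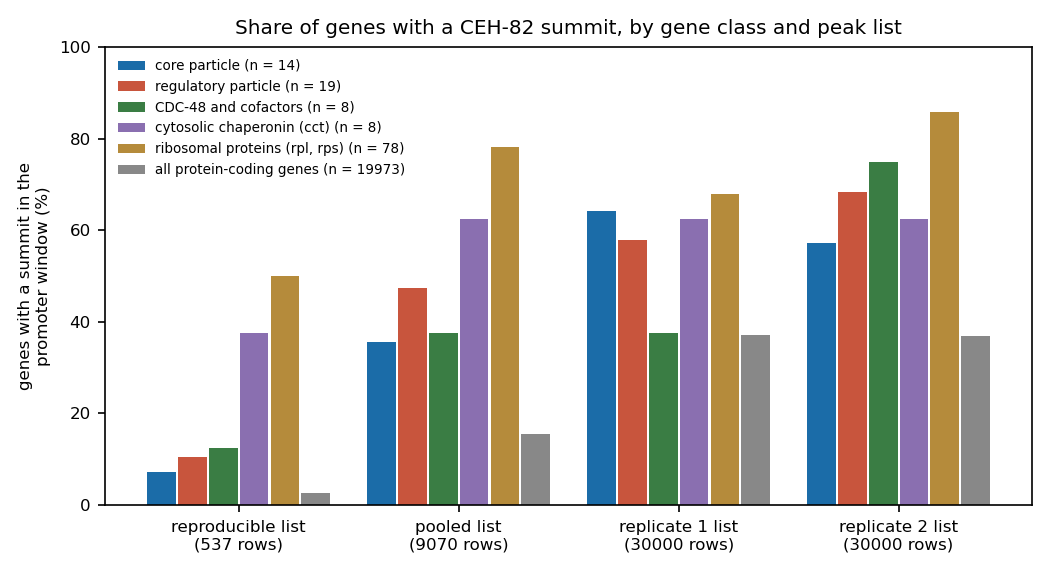
Percent of genes in each class with a summit in the promoter window, for the 4 peak lists; the number of genes per class is in the legend and bars start at 0. In the reproducible list the member classes reach 7.14%, 10.5% and 12.5%, the chaperonin and ribosomal protein genes 37.5% and 50%, and all protein-coding genes 2.54%.

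Every pooled summit at a member lay upstream of the annotated start. The window itself reaches 1000 bp upstream but only 200 bp downstream, which by construction favours upstream positions in all these counts. The 18 summits had a median position of -278 bp and ranged from -873 to -1 bp. Over all protein-coding windows, the median of pooled summits was -273 bp, and 88.5% fell upstream. Of the 4 reproducible peaks, 3 were within 13 bp of each other in position, at -182, -189 and -195 bp, and rpn-11 was apart at -1 bp. For reproducible peaks in all protein-coding windows the median was -249.5 bp, and 96.7% fell upstream. Of the 37 members without a reproducible peak, 2 had a reproducible summit within 3000 bp of the start, pbs-2 at 1324 bp and rpt-1 at 2323 bp. The median distance over the 37 was 43929 bp. These values are not at hand for all protein-coding genes, so nothing is read from them.

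Members often share their upstream region with a gene on the other strand, which bears on how peaks are counted. A protein-coding gene on the opposite strand started within 1000 bp upstream of 23 members (56.1%), against 17.5% of all protein-coding genes and 50.5% of those with a reproducible peak. Such neighbours included hsp-110 for rpn-3, the cohesin gene scc-1 for rpn-5, rad-23, which encodes a ubiquitin shuttle protein, for rpn-12, and rpb-3, for an RNA polymerase subunit, for pas-4. Among genes with such a neighbour, 2 of 23 members (8.70%) and 7.31% of all protein-coding genes had a reproducible peak, which is nearly the same share. Pooled summits were found for 10 of these 23 members (43.5%), against 25.4%. Among genes without such a neighbour, 2 of 18 members (11.1%, cdc-48.1 and rpn-11) and 1.52% of all protein-coding genes had a reproducible peak, and 7 of 18 (38.9%) and 13.4% a pooled summit. This split was chosen after the values were seen. Another protein-coding start was in range at 10 of the 18 pooled summits at members, against 20.5% of all pooled summits in a protein-coding window. For 13 members (31.7%, against 28.5% of all protein-coding genes), the nearest upstream gene within 1000 bp was on the same strand. The gap was 22 bp at pbs-3, 54 bp at rpn-6.2 and 106 bp at pas-1, which were in no list. It was 85 bp at ufd-1, which had a pooled summit. Whether the promoter of such a gene lies outside its window was not tested.

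**Figure D4:**
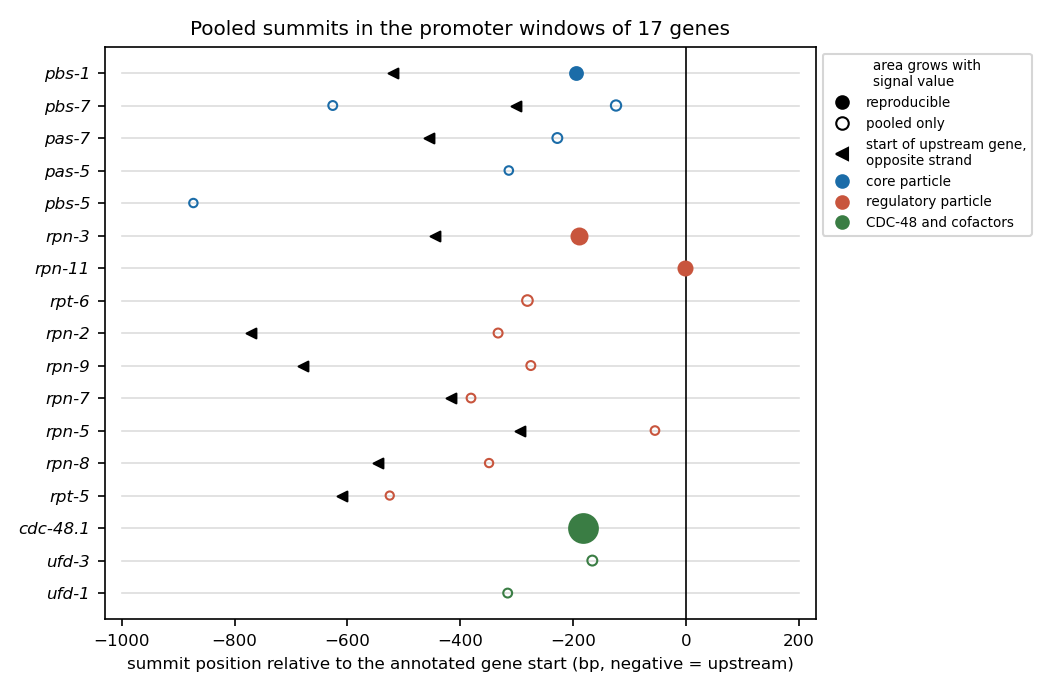
Position of each of the 18 pooled summits relative to the annotated start of its member gene, in bp, with symbol area growing with signal value, filled symbols for reproducible peaks and black arrowheads for the start of an upstream gene on the other strand. All summits lie left of the start, and 3 of the 4 filled symbols lie between -195 and -182 bp.

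By chromosome, the members were 11 of 2878 protein-coding genes on I, 13 of 3449 on II, 8 of 2640 on III, 4 of 3281 on IV, 5 of 4994 on V and 0 of 2731 on X. Reproducible peaks were at 2 members on II, 1 on III and 1 on IV. Pooled summits were at 5 members on I, 6 on II, 3 on III, 3 on IV and 0 on V. With so few members on each chromosome, nothing is read from these counts.

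Within 100 bp to either side of the summit, the 4 reproducible peaks at members had less GC than the median reproducible peak. The 4 windows with a reproducible peak had 32.8% GC at cdc-48.1, 36.8% at rpn-3, 41.8% at rpn-11 and 43.3% at pbs-1. Over all 537 reproducible peaks the median was 46.3%, with quartiles at 41.8% and 51.7%. The 18 pooled summits at members had a median of 36.8%, against 38.3% for all 9070 pooled regions. The promoters of all members, 250 bp before and 50 bp from the start, had a median of 34.3% GC, the same as over all protein-coding genes.

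Few of the motifs searched were in the windows shown above. The motifs, read on both strands, were GAGAGAGA, the SP/KLF site GGCGGG, the E-box CAGCTG, the cut-like site ATCGAT, the homeodomain cores TAATTA and TAATTG, the SKN-1 core TGTCAT or TATCAT, the E2F forms TTTCCCGC, TTTGGCGC, TTTCGCGC and TTTGCCGC, and the GATA site TGATAA. The GATA site can share 5 bases with TATCAT, and the first E2F form part of GGCGGG. A match describes letters and not a site of action.

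The SKN-1 core was in 3 of the 4 reproducible windows of members, in capitals above at 61 bp downstream of the cdc-48.1 summit, 50 bp downstream of that of pbs-1 and 27 bp downstream of that of rpn-11. The rpt-6 window has it at 87 bp downstream. It was in 9 of the 18 pooled windows of members (50%), against 11.9% of the 537 reproducible and 19.1% of the 9070 pooled windows. In promoters of 300 bp it was in 20 of 41 members (48.8%), against 32.3% of all protein-coding genes. By class it was in 5 of 14 core particle promoters (35.7%), 10 of 19 of the regulatory particle (52.6%) and 5 of 8 for CDC-48 and cofactors (62.5%). The 537 and 9070 windows are not limited to promoters. Those of reproducible peaks had a median of 46.3% GC, and the part of GC in these shares was not tested. The counts at member summits rest on 4 and 18 windows, so nothing is read from them.

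The other motifs were rarer at members. The SP/KLF site was in the rpn-11 window, 62 bp upstream of the summit, and in 3 of the 18 pooled windows of members (16.7%), against 12.3% of reproducible and 5.44% of pooled windows. In promoters it was in 1 of 41 members (2.44%), against 6.48% of all protein-coding genes. The GAGA repeat was in none of the 41 member promoters, against 3.54% of all promoters. It was in none of the 18 pooled windows of members, against 4.58% of all pooled windows. It was in none of their 4 reproducible windows, against 14.2% of all reproducible windows. With so few windows, nothing is read from its absence. Neither homeodomain core was in the 4 reproducible windows. Over all reproducible windows, TAATTA was in 5.77% and TAATTG in 6.33%. In promoters, TAATTA was in 24.4% of members, against 15.5% of all protein-coding genes, and TAATTG in 17.1%, against 23.6%. The cut-like site (2.44%, against 12.3%), the E-box (7.32%, against 5.55%), the E2F forms (2 of 41 members, against 4.69%) and the GATA site (26.8%, against 30.2%) rest on 1 to 11 member promoters each. None of these 4 motifs was in a reproducible window of a member. Over all reproducible windows they were, in the same order, in 11.2%, 7.82%, 7.64% and 6.52%, so nothing is read from this absence. In the 18 pooled windows of members they were in 1, 1, 2 and 2, against 7.95%, 4.49%, 4.05% and 15.3% of all pooled windows.

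Other genes of ubiquitin-dependent degradation, from lists that hold no member, also carried a few reproducible peaks. Of 23 matched genes for ubiquitin and proteasome regulation, 2 had a reproducible peak (8.70%, against 2.54% of all protein-coding genes). These were wwp-1, a ubiquitin ligase gene (43.5, rank 98, -255 bp), and ubql-1, for ubiquilin, which carries ubiquitinated proteins to the proteasome (36, rank 155, -490 bp). Both were among the strongest regions of each replicate, at ranks 292 and 99 for wwp-1 and 296 and 149 for ubql-1. Pooled summits only were found for rbx-1 (17.4), usp-14 (13.4), ubq-2 (10.7) and ubc-18 (10.4), so that 6 of 23 (26.1%) had one, against 15.5%. Those of ubq-2 and ubc-18 had no matching replicate 1 summit. The SKN-1 gene skn-1 itself had no pooled summit in the promoter window of its annotated gene start.

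Of 16 genes for CDC-48 adaptors and degradation at the endoplasmic reticulum, 2 had a reproducible peak (12.5%, against 2.54% of all protein-coding genes). These were ubc-7, a ubiquitin conjugating enzyme gene (23.6, rank 407), and ubxn-2, which encodes an adaptor of CDC-48 with a UBX domain (21.9, rank 480). The ubxn-2 peak ranked 17876 in replicate 1 and 354 in replicate 2, so it rests on replicate 2. With pooled summits at ubxn-3 (10.5) and ubc-6 (10.1), neither with a matching replicate 1 summit, 4 of 16 (25%) had one, against 15.5%. The lists share 2 genes, sel-11 and png-1.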

How the data were processed

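ChIP-seq peak lists of 2 biological replicates were analysed. Per the file listing deposited with the samples, the authors called regions against a control alignment (not analysed here), per replicate and pooled, and thresholded the pooled list by irreproducible discovery rate. The aligner, caller, threshold and handling of multiply mapped reads were not given in the sources used here. Column 7 is a score (signal value) of the authors with no stated scale. Column 9 of the deposited lists is, by its format, the −log10 of a q-value, 2.46 to 2.93 in the thresholded list. Lists on ce10 were not used.

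Summits on ce11 were compared with gene starts of Ensembl release 115 (WBcel235, the same assembly) in Python 3.11.15 with pandas 2.3.3. The assignment was tested on simulated data: 200 of 200 planted summits were recovered, and 0 of 400 placed 1 bp outside a window were assigned. Sequence came from the RefSeq copy of WBcel235. All members are named; the other genes named come from fixed lists or share a member's peak. The members, lists and motifs were chosen with earlier results of these data known. Alternatives were other windows, starts, thresholds and each replicate alone. No test was run, since the members were not chosen blind and there is 1 group.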

Additional observations from a re-analysis of the deposited data

How the results depend on the processing

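The count of 4 members with a reproducible peak did not change with narrower or wider promoter windows, with any overlap of the peak in place of the summit, with any annotated transcript start or with the nearest protein-coding start only. It was 3 to 5 with a single replicate and 3 in the stronger 50% of the peaks. For the core particle the count of 1 was 0 in the stronger 50% of peaks and 0 to 2 with a single replicate, since pbs-1 was not among the strongest regions of replicate 2, and pas-5 was among those of replicate 1. The other 2 classes kept their counts under these alternatives, though not always the same genes. The share of all protein-coding genes was 1.36% in the stronger 50%, which holds fewer peaks, and 1.74% to 3.27% under the other alternatives.

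Alternatives added after the data were seen gave 6 members in the 1074 strongest pooled regions (with rpt-6 and pbs-7). The count was 2 when peaks in range of another protein-coding gene were left out (cdc-48.1 and rpn-11). No share of all protein-coding genes is at hand for these settings, so their counts cannot be set against 2.54%. For genes with and without an opposite-strand neighbour the count was 2 each. Members with a pooled summit numbered 13 to 19, against 17, again with no share of all protein-coding genes at hand. Median GC at member summits was 40.6% within 50 bp and 33.5% within 200 bp to either side, against 36.8% within 100 bp. Within 50 bp, the reproducible peaks had 39.6% at cdc-48.1, 37.6% at rpn-3, 48.5% at rpn-11 and 49.5% at pbs-1. No median over all reproducible peaks is at hand for these 2 widths, so that comparison holds for 100 bp only. Signal values of single replicates are on their own scales. With no read counts deposited in the lists, depth limits every missing summit by an unknown amount. No paired analysis was possible because there is 1 group.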
